A study of Homo sapiens with 95 samples.

Results

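A set of 7 genes that encode drug efflux pumps of the ATP-binding cassette (ABC) family was followed in AALE cells, which are human bronchial epithelium made immortal, under genetic and chemical perturbation. The genes, ABCC1, ABCC2, ABCC3, ABCC4, ABCC5, ABCB1 and ABCG2, were chosen by symbol, and all 7 were found among the 27978 genes listed for every sample. RNA was profiled by sparse full length sequencing (SFL), a multiplexed RNA sequencing method in which barcoded libraries are pooled, and 95 samples were analysed. They came from 8 lines, each exposed to 4 treatments, with 3 replicates in 31 of the 32 combinations and 2 in FGFR1 cells with CSC. Separate lines overexpressed NRF2 (the gene NFE2L2), FGFR1, NRG1 or PIK3CA, and their control carried an empty vector with the reporter HcRed. A FAT1 and a CDKN2A line were CRISPR knockouts, and their control, GFP, received the pSpCas9-EGFP plasmid PX458 with no sgRNA. Cells in 24-well plates received DMSO (the solvent control), 24 µg/ml CSC (cigarette smoke condensate, the tar fraction of smoke), 173 µM BaP (benzo[a]pyrene, a polycyclic aromatic hydrocarbon) or 490 µM NNK (a nitrosamine of tobacco). The exposure time, the promoters of the overexpression vectors and whether a knockout line was 1 clone are not given in the sources used here. The study calls the replicates biological and does not describe how they were separated, and p-values measure the spread between these samples.

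ABC efflux pumps span the cell membrane and use ATP to move drugs, metabolites and conjugates out of the cell. Together with the enzymes that oxidize foreign compounds and attach glutathione, glucuronide or sulfate to them, they form the last step of xenobiotic handling, and several are known for drug resistance in cancer. In airway epithelium ABCC1 is the best described of them. Transcription of some of these pumps is known to respond to NRF2, which answers oxidative and electrophilic stress, and to the aryl hydrocarbon receptor (AhR), which polycyclic aromatic hydrocarbons activate.

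Total counts per sample ran from 287446 to 2116383 with a median of 934235, so that 3 reads amounted to between 1.47 and 9.84 CPM (counts scaled to a common library total). Each overexpressed gene was higher in every sample of its line than in any HcRed sample, and FAT1 and CDKN2A reads were lower in every sample of their knockout lines than in any GFP sample. The epithelial markers KRT5, TP63, EPCAM and CDH1 were detected in all samples, with medians of 3118, 193, 170 and 499 CPM. Of 16 markers of fibroblasts, leukocytes, endothelium, ciliated, club and liver cells, CD3E and SCGB3A2 were at 0 throughout. The summed level of the 16 markers was 19.3 to 54.3 CPM in DMSO, 40.4 to 75.6 in CSC, 22.4 to 79.9 in BaP and 21.9 to 64.8 in NNK. COL1A1 and CD68 made up 93.1% of that sum in the median sample. The part of this shift in the treatment results was not tested.

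ABCC1, ABCC5, ABCC3 and ABCC4 were the pumps these cells transcribed at a level that SFL could follow in nearly every sample. ABCG2 was low, ABCC2 was near the limit of detection and ABCB1 was almost absent. ABCC1 (MRP1, an exporter of glutathione conjugates and leukotriene C4) had 30.0 CPM in the lowest sample, 80.7 in the median and 141 in the highest. ABCC5 (MRP5) and ABCC4 (MRP4), both exporters of cyclic nucleotides and nucleotide analogues, had medians of 64.4 (40.6 to 127) and 38.5 CPM (15.8 to 67.0). ABCC3 (MRP3), which carries glucuronide conjugates across the basolateral membrane, had a median of 54.7 CPM and the widest range of the 4, from 21.6 to 136. The ranges of these 4 genes overlapped one another.

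ABCG2 (BCRP, an exporter of sulfate conjugates, urate and many drugs) had a median of 11.3 CPM, reached 24.3 and was at 0 in 1 sample. ABCC2 (MRP2, the apical pump for bilirubin conjugates in the liver) had a median of 1.88 CPM, was at 0 in 22 samples and never had more than 7 reads. ABCB1 (P-glycoprotein, which expels hydrophobic drugs) had 12 reads in all, at most 1 per sample, and none in 83 samples. Over the pooled counts this was 0.134 CPM (95% exact Poisson interval 0.0693 to 0.234, which covers counting error only). ABCB1 therefore did not reach the mean count of 1 that a gene needed to be tested, and the tests below cover the other 6 members. Of the 12 ABCB1 reads, 5 came from CDKN2A cells, 4 from GFP cells and 1 each from FGFR1, NRG1 and PIK3CA cells.

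Per kilobase of the reference transcript, where levels of different genes can be set side by side, the median sample had 12.4 CPM per kb of ABCC1, 11.1 of ABCC5, 9.61 of ABCC3, 6.58 of ABCC4, 2.69 of ABCG2 and 0.324 of ABCC2. ABCC1 was the highest member in 54 of 95 samples, ABCC5 in 18, ABCC3 in 17 and ABCC4 in 6. The order of ABCC3 and ABCC5 depended on the length used, since with all annotated exons merged their medians were 5.69 and 5.66. In DMSO, ABCC3 was the highest member in 0 of 24 samples and its median of 5.58 CPM per kb lay under that of ABCC4, 7.49. In CSC it was the highest in 9 of 23 samples and its median was 14.5, with ABCC1 at 13.8 and ABCC4 at 7.02. ABCC3 was the highest member in 6 of 24 BaP samples and 2 of 24 NNK samples. The order of ABCC3 and ABCC1 in CSC also depended on the length used. With exons merged ABCC3 is the longer (9615 against 8736 bases), and its CSC median in CPM was the lower (82.8 against 89.9). With that length ABCC1 therefore lies above ABCC3 in CSC. The counts of the highest member were made with the reference transcript only.

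**Figure D1:**
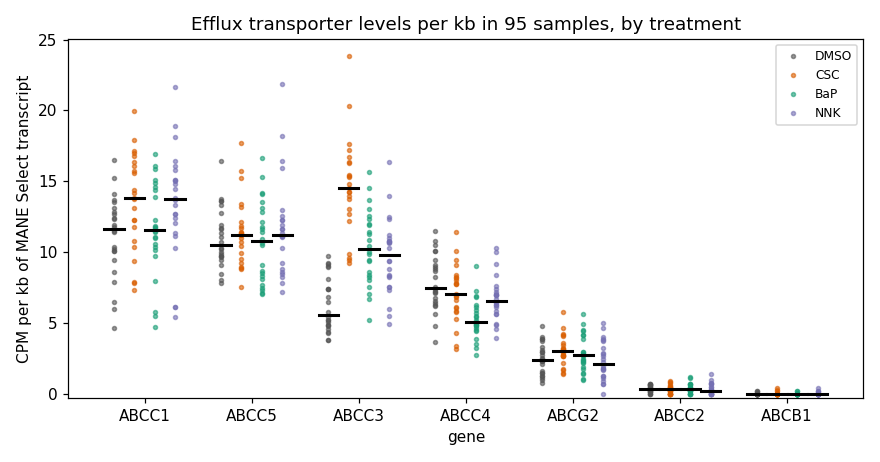
Level of each of the 7 pumps in every sample, in CPM per kilobase of the reference transcript, with 1 point per sample coloured by treatment and a bar at the median of each treatment. The medians of ABCC1, ABCC5, ABCC3 and ABCC4 lie above those of ABCG2, ABCC2 and ABCB1 while single points of ABCG2 overlap them, and the ABCC3 median is 14.5 with CSC and 5.58 with DMSO.

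On GRCh37, the build of the alignment (UCSC hg19), ABCC1 is annotated at chr16:16042995-16237114 and ABCC3 at chr17:48712138-48769614, both on the plus strand. ABCC4 is at chr13:95672089-95953729, ABCC5 at chr3:183637722-183735727, ABCG2 at chr4:89011302-89152780 and ABCB1 at chr7:87132333-87342639, all on the minus strand. ABCC2 is at chr10:101542397-101612351 on the plus strand. No exon of the 7 overlapped an exon of another gene. GC content over merged exons was 55.7% for ABCC3 and 53.8% for ABCC1, with 47.8% for ABCC5, 44.3% for ABCC2, 42.8% for ABCC4, 42.6% for ABCG2 and 40.4% for ABCB1.

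Promoter sequences were available from RefSeq on GRCh38.p14 for ABCC2, ABCC4, ABCC5, ABCB1 and ABCG2. The 250 bases before the start site are shown for ABCC4, the member that fell with BaP, and for ABCC5, for which no treatment passed the test. They lie at chr13:95301452-95301701 and chr3:184017885-184018134, both read 5′ to 3′ on the minus strand. Capitals mark the core of the antioxidant response element, TGACNNNGC, to which NRF2 binds, and the core of the xenobiotic response element, GCGTG, to which AhR binds, searched on both strands.
ABCC4: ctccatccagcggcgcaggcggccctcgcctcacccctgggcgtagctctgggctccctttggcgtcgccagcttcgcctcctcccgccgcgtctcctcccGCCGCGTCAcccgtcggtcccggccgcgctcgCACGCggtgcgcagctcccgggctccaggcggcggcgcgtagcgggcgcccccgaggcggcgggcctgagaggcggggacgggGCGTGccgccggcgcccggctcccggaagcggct
ABCC5: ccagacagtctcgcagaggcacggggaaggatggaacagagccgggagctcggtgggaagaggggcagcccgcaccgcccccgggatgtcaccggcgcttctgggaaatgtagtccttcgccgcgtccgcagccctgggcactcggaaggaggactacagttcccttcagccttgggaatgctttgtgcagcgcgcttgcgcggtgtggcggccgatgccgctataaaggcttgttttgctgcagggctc
The ABCC4 stretch held TGACNNNGC at position -149 and GCGTG at -117 and -34, none overlapping another, and the ABCC5 stretch held neither. In the 50 bases after the start GCGTG occurred at position 29 in ABCC4 and 11 in ABCC5. Over 35116 promoters of this length (250 bases before and 50 after), 13.3% held TGACNNNGC and 36.5% held GCGTG. ABCG2, for which no treatment passed the test either, has several start sites. Its windows held 2 GCGTG at some of them, 1 TGACNNNGC at another and neither at a further site. ABCB1, which was not tested, held 1 GCGTG at a start site and neither motif at another, and ABCC2 held neither. GC content of the windows was 79.7% for ABCC4 and 65.7% for ABCC5. These matches are letters in a window and were not tested for binding or for a link to the response.

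Treatment accounted for more of the variance of ABCC3 than did the cell line, and the reverse held for the other tested members. Of the sum of squares of log2 CPM over the 95 samples, treatment took 54.7% for ABCC3 against 28.4% for line. For ABCC1 line took 74.3% and treatment 7.54%, for ABCC5 54.5% and 2.07%, and for ABCC4 46.3% and 23.0%. The share left between replicates of a combination was 12.7% for ABCC1, 13.3% for ABCC3, 23.2% for ABCC4 and 33.8% for ABCC5. It was largest for the genes with fewest reads, at 40.6% for ABCG2, 60.8% for ABCB1 and 69.9% for ABCC2. ABCB1 was at 0 in 83 of 95 samples, where log2 CPM depends only on the 0.5 added counts and the library total.

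To ask which pumps moved with each chemical, each treatment was compared with DMSO over all lines with the line in the model (limma-voom, two-sided, with Benjamini-Hochberg adjustment over all 14384 genes tested). The 3 comparisons share the 24 DMSO samples, and the doses differ, so their values stand side by side and were not compared with each other. ABCC3 rose with all 3 chemicals, ABCC1 rose with CSC and NNK, and ABCC4 fell with BaP and NNK. ABCC5, ABCG2 and ABCC2 did not pass the test with any of them. In these bulk samples, more RNA per cell and more cells with the RNA cannot be told apart. With CSC 2 of 6 tested members passed 0.05, with BaP 2 of 6 and with NNK 3 of 6, where 55.1%, 51% and 51.8% of all tested genes passed, so the share of members called was no higher than the background in the first 2 and near it in the third.

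ABCC3 had 21.6 CPM in the lowest of 24 DMSO samples, 31.7 in the median and 55.5 in the highest. With CSC the 23 samples ran from 52.6 through a median of 82.8 to 136 CPM. The 2 sets met only at their edges, where NRG1 cells with DMSO reached the level of PIK3CA cells with CSC. The fitted change was 2.32-fold (95% interval 2.10 to 2.55, log2 1.21, SE 0.07, adjusted p = 1.07e-32 by limma-voom with Benjamini-Hochberg), and 99.1% of tested genes had a change at or below it. With BaP ABCC3 had a median of 58.1 CPM (29.5 to 88.9) and rose 1.65-fold (log2 0.72, SE 0.08, limma-voom with Benjamini-Hochberg adjusted p = 4.54e-15). With NNK its median was 55.9 CPM (28.2 to 93.1) and it rose 1.58-fold (log2 0.66, SE 0.08, limma-voom with Benjamini-Hochberg adjusted p = 8.13e-13).

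The change of ABCC3 was present line by line. In FGFR1 cells the DMSO samples had 27.7, 21.6 and 26.0 CPM and the CSC samples 80.9 and 69.4, a ratio of means of 2.995 and the largest of the 8 lines. In FAT1 cells the values were 24.4, 27.5 and 28.7 with DMSO, 56.2, 82.8 and 95.1 with CSC, and 46.7, 71.4 and 56.1 with BaP. CDKN2A cells had 42.3, 39.0 and 51.4 CPM with DMSO and 87.2, 97.9 and 74.1 with CSC, the smallest ratio at 1.95. Every CSC sample of a line exceeded every DMSO sample of that line in 8 of 8 lines, which was so for 2.72% of the 10062 genes whose mean count was 10 or more.

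With BaP all ABCC3 samples were above those with DMSO in 8 of 8 lines as well (1.26% of genes), with ratios of means from 1.47 in GFP to 2.16 in FAT1 cells. With NNK this held in 7 of 8 lines, and 3.26% of genes separated upward in 7 or 8 lines. The exception was the NRF2 line, where 47.0, 70.9 and 41.6 CPM with NNK overlapped 36.8, 30.6 and 52.3 with DMSO. Ratios with NNK ran from 1.33 in NRF2 to 2.03 in FAT1 cells.

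**Figure D2:**
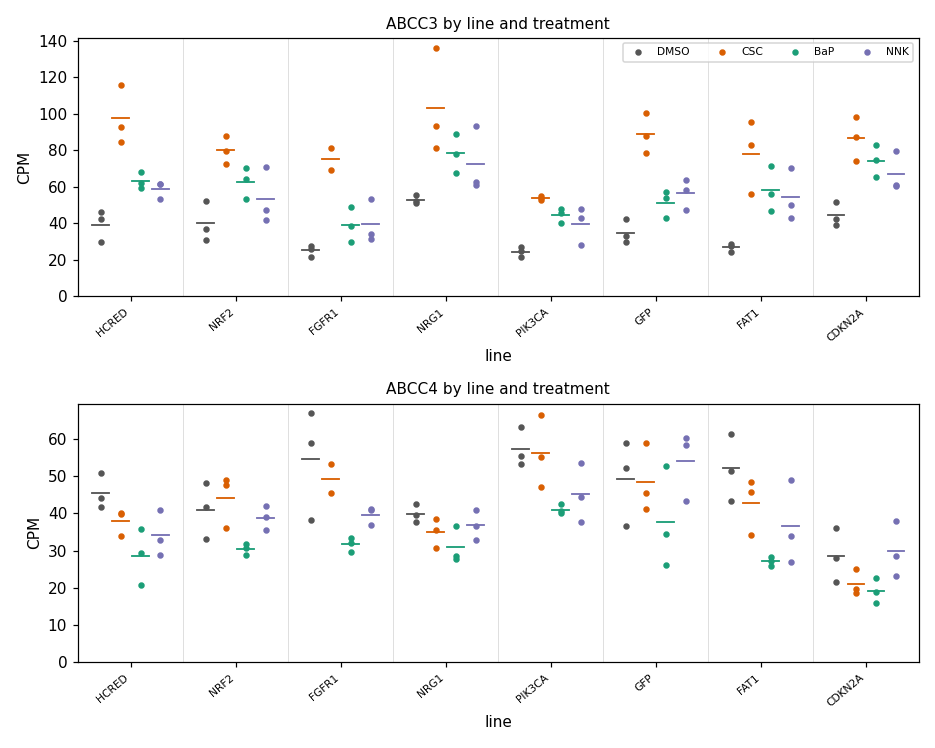
ABCC3 and ABCC4 in each sample, in CPM, by line and treatment, with 1 point per replicate and a bar at the mean of each combination of 3 replicates (2 for FGFR1 with CSC). In all 8 lines the ABCC3 points with CSC lie above those with DMSO, and in 6 lines the ABCC4 points with BaP lie below those with DMSO.

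ABCC4 moved the other way. Its 24 DMSO samples ran from 21.5 through a median of 43.9 to 67.0 CPM, and its 24 BaP samples from 15.8 through 29.4 to 52.8. The ranges overlapped over all lines together, and the fitted level with BaP was 0.697 of that with DMSO (95% interval 0.630 to 0.772, log2 -0.52, SE 0.08, limma-voom with Benjamini-Hochberg adjusted p = 1.57e-09). Only 2.68% of tested genes had a change at or below this one. The mean was lower with BaP in 8 of 8 lines, as it was for 21.97% of 10062 genes. In 6 lines every BaP sample was below every DMSO sample, where 6.4% of genes separated downward in 6 or more lines.

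The largest ABCC4 difference with BaP was in FAT1 cells, with 43.5, 51.5 and 61.5 CPM in DMSO and 28.3, 27.1 and 25.9 in BaP, a ratio of 0.520. The smallest was in NRG1 cells, with 39.5, 42.5 and 37.6 CPM in DMSO and 36.6, 28.5 and 27.9 in BaP, a ratio of 0.777. GFP and CDKN2A cells were the 2 lines whose ABCC4 samples overlapped, since 1 GFP sample with BaP had 52.8 CPM and 1 CDKN2A sample with DMSO had 21.5. With NNK the ABCC4 level was 0.855 of that with DMSO (log2 -0.23, SE 0.07, limma-voom with Benjamini-Hochberg adjusted p = 0.00429), and with CSC 0.917 (adjusted p = 0.109 by the same test). The NNK call was lost without replicate 1 (adjusted p = 0.144 by limma-voom) and without replicate 3 (0.0660), each of which leaves out about 1 sample of every combination.

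ABCC1 had medians of 75.7 CPM with DMSO, 89.9 with CSC, 75.4 with BaP and 89.3 with NNK, with ranges that overlapped widely. With CSC it rose 1.24-fold (95% interval 1.15 to 1.34, log2 0.31, SE 0.06, limma-voom with Benjamini-Hochberg adjusted p = 1.84e-06), and with NNK 1.21-fold (log2 0.27, SE 0.06, adjusted p = 4.05e-05 by the same test). With BaP the value was 1.05-fold (95% interval 0.968 to 1.14). All CSC samples exceeded all DMSO samples in 4 lines, HcRed, FGFR1, PIK3CA and GFP, and the share of genes separating upward in 4 or more lines was not counted. The mean was higher with CSC in 8 of 8 lines, as it was for 19% of 10062 genes.

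The remaining members gave smaller or less certain values. ABCC5 had median levels of 60.7 CPM with DMSO, 65.0 with CSC, 62.4 with BaP and 65.0 with NNK, and the 95% intervals of its fold changes were 0.947 to 1.122, 0.886 to 1.05 and 0.980 to 1.16. ABCG2 had medians of 10.1, 12.7, 11.3 and 8.74 CPM, and with CSC its value was 1.23-fold (95% interval 1.01 to 1.49, limma-voom with Benjamini-Hochberg adjusted p = 0.0666). For ABCC2 the 95% interval with CSC was 0.606 to 1.27, so that a moderate change in either direction was not detectable at this depth.

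ABCC3 and ABCC1 have the highest GC content of the 7, and over all genes the number of calls with CSC went from 7922 to 4492 once trends of GC content and exon length were removed from each sample. In that setting ABCC3 remained past the threshold with CSC (log2 0.94, limma-voom with Benjamini-Hochberg adjusted p = 1.98e-24), BaP (0.47, 1.45e-07) and NNK (0.38, 5.97e-05). ABCC4 remained so with BaP (log2 -0.38, adjusted p = 1.66e-05 by limma-voom) and not with NNK (-0.09, 0.445). The ABCC1 calls were lost, at log2 0.10 with CSC (adjusted p = 0.163 by limma-voom) and 0.06 with NNK (0.561). ABCG2 passed in this setting with CSC (log2 0.46, adjusted p = 0.00677 by limma-voom) and BaP (0.40, 0.0302).

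**Figure D3:**
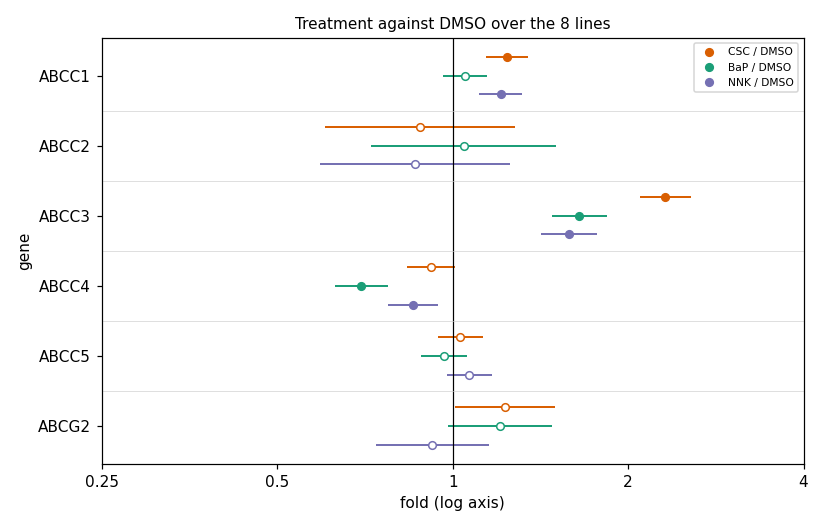
Fold change of each tested pump against DMSO (log axis) for CSC, BaP and NNK over all lines, with bars for 95% intervals from limma-voom, a line at 1 and filled points past the adjusted threshold of 0.05. ABCC3 lies to the right of 1 for all 3 chemicals, at 2.32, 1.65 and 1.58, and ABCC4 lies to the left for BaP at 0.697.

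Whether the response differed between lines was asked with an F test over the interaction terms. No member passed for CSC, BaP or NNK (limma-voom with Benjamini-Hochberg adjustment), none had an unadjusted p under 0.05, and edgeR and DESeq2 called none either. Over all genes 0.779%, 0.327% and 0.0695% passed. For ABCC3 with CSC, the member with the lowest p, the unadjusted value was 0.104 and the adjusted p 0.615.

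Because NRF2 is a known activator of several of these pumps, the CSC response was also set out in NRF2 cells and their HcRed control. In HcRed cells ABCC3 went from 42.2, 46.1 and 29.5 CPM to 92.8, 116 and 84.4 with CSC, 2.54-fold (95% interval 1.998 to 3.24, limma-voom with Benjamini-Hochberg adjusted p = 3.99e-09). In NRF2 cells it went from 36.8, 30.6 and 52.3 CPM to 79.5, 87.7 and 72.4, 2.02-fold (95% interval 1.57 to 2.62, limma-voom with Benjamini-Hochberg adjusted p = 3.06e-05). In both lines every CSC sample was above every DMSO sample, and the share of genes separating so within a single line was not counted.

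ABCC1 went from 87.8, 74.9 and 83.6 CPM to 130, 101 and 111 in HcRed cells (1.35-fold, limma-voom with Benjamini-Hochberg adjusted p = 0.0129). In NRF2 cells it had 107, 99.2 and 91.8 CPM with DMSO and 111, 106 and 89.5 with CSC (1.02-fold, 95% interval 0.846 to 1.24). The HcRed call was lost in DESeq2 (adjusted p = 0.103), after GC correction in limma-voom (0.624) and without HcRed CSC replicate 1 (0.0910), HcRed DMSO replicate 2 (0.0657) or HcRed DMSO replicate 3 (0.0514). In HcRed cells 2 of 6 members passed against 23.8% of all genes, and in NRF2 cells 1 of 6 against 9.1%. The difference between the lines itself did not pass for any member, where 0.238% of genes passed. It was -0.40 on the log2 scale for ABCC1 (SE 0.20, unadjusted p = 0.0461, limma-voom with Benjamini-Hochberg adjusted p = 0.494) and -0.33 for ABCC3 (SE 0.27, adjusted p = 0.733 by the same test). ABCC1 was the 1 member with an unadjusted p under 0.05, and edgeR and DESeq2 called none.

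NRF2 overexpression was not followed by a detected change in any pump. With DMSO 0 of 6 tested members passed against 7.16% of all genes, and over the 4 treatments 0 of 6 against 21.6%. None had an unadjusted p under 0.05 in limma-voom, and edgeR and DESeq2 called none. With DMSO ABCC1 was at 1.195-fold (95% interval 0.989 to 1.445). Every NRF2 sample with DMSO (91.8 CPM or more) was above every HcRed sample (87.8 or less). The share of genes separating so was not counted. The 95% interval for ABCC1 over the 4 treatments was 0.927 to 1.14-fold, for ABCC3 0.798 to 1.03-fold and for ABCC4 0.902 to 1.21-fold. For ABCG2 it was 0.9994 to 1.63-fold, for ABCC5 0.954 to 1.21-fold and for ABCC2 0.347 to 1.05-fold. In the same comparison NFE2L2 was 6.65-fold higher. Of 8 reference targets of NRF2, 3 rose and 0 fell, with NQO1 (a quinone reductase) 1.19-fold and TXNRD1 (thioredoxin reductase) 1.14-fold higher, and the median log2 change of the 8 was 0.17 against 0.00 over all genes.

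The other genes of xenobiotic handling were counted in the same 3 treatment comparisons, from lists chosen with earlier results of these data known. Over all genes, 28% rose and 27.1% fell with CSC, 26.1% and 24.9% with BaP, and 26.1% and 25.7% with NNK, and the counts below are to be read against these shares. All 8 NRF2 targets rose with CSC and with BaP, with median log2 changes of 0.81 and 0.88, and NQO1 rose 2.58-fold and 2.07-fold. With NNK 3 of the 8 rose and 1 fell, with NQO1 at 1.31-fold, and with GC and length trends removed 4 rose and 0 fell, the 1 that fell, SLC7A11, changing sign. All 6 AhR targets rose with each chemical, with median log2 changes of 2.37, 2.61 and 1.37. CYP1A1, which oxidizes polycyclic aromatic hydrocarbons, rose 50.4-fold with CSC, 49.4-fold with BaP and 8.34-fold with NNK. The median log2 change over all genes was between 0.00 and 0.01 in the 3 comparisons. NQO1 stands in both lists, and GCLM and SLC7A11 in both the NRF2 and the glutathione list. AHRR stands in both the AhR list and the list of regulators below.

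The glutathione list covers glutathione metabolism and conjugation with glutathione, glucuronide or sulfate. Of its 22 tested genes, 12 rose and 0 fell with CSC, 13 rose and 0 fell with BaP, and 7 rose and 2 fell with NNK. GCLC, a subunit of the rate-limiting enzyme of glutathione synthesis, rose 1.57-fold with CSC and 1.67-fold with BaP, and GSTP1, a glutathione transferase, rose 1.47-fold and 1.51-fold. With GC and length trends removed, the counts were 9 up and 1 down with CSC, 12 up and 1 down with BaP, and 5 up and 1 down with NNK. CHAC1 changed sign in that setting with each chemical, and SLC7A11, GSTP1 and MGST1 did so with NNK. These genes are named for that change of sign, after their values were seen. Of 14 tested solute carriers (SLC and SLCO genes, not all of which work as uptake carriers), 8 rose with CSC, 5 with BaP and 4 with NNK. None fell. SLC19A1, the reduced folate carrier, rose 2.06-fold with CSC and 1.51-fold with BaP. After GC correction 4, 1 and 1 of the carriers rose, and 1 fell with BaP.

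Other ABC genes moved in both directions. Of 23 tested, 10 rose and 5 fell with CSC, 10 rose and 7 fell with BaP, and 9 rose and 4 fell with NNK, and after GC correction 6 and 1, 4 and 4, and 4 and 3. ABCA1 and ABCG1, which export cholesterol and phospholipid, rose 4.28-fold and 3.12-fold with CSC, whereas ABCA1 fell to 0.311 of its DMSO level with BaP and 0.463 with NNK. ABCA7 rose 1.64-fold with NNK. Of 15 tested regulators of these genes, 6 rose and 4 fell with CSC, 6 rose and 3 fell with BaP, and 5 rose and 2 fell with NNK, and after GC correction 5 and 5, 6 and 2, and 5 and 3. AHRR, the repressor that AhR itself induces, rose 6.44-fold, 7.69-fold and 3.22-fold. KEAP1, which holds NRF2 inactive, was 1.28-fold higher with CSC and 1.41-fold higher with BaP, and both values changed sign once GC and length trends were removed.

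ABCC1 was the member with the largest share of variance between lines. Over its 12 samples the GFP line had a median of 39.2 CPM and ran from 30.0 to 51.2, and the HcRed line had a median of 102 CPM and ran from 74.9 to 130, so the 2 control lines did not overlap. The order of medians from the top was HcRed, NRF2 (101), NRG1 (91.2), PIK3CA (89.3), FGFR1 (80.0), FAT1 (72.9), CDKN2A (67.3) and GFP (39.2), with each neighbour overlapping the next. GFP cells had 0.426 times the ABCC1 level of HcRed cells over the 4 treatments (95% interval 0.376 to 0.482, limma-voom with Benjamini-Hochberg adjusted p = 1.48e-20). In that comparison of the control lines 3 of 6 members passed against 45% of all genes. The others were ABCC4 at 1.22-fold and ABCC2 at 0.492, and both calls were lost when replicate 3 was left out, at adjusted p = 0.315 and 0.0559 by limma-voom. The ABCC4 call was also lost after GC correction (0.0804 by limma-voom). The ABCC2 call was also lost without replicate 1 (0.249) and replicate 2 (0.0620), with no filter (0.0548), in edgeR (0.0617) and in DESeq2 (0.0801).

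Both knockout lines were compared with this GFP line, so their comparisons share its samples. With DMSO, ABCC1 had 30.0, 42.3 and 38.8 CPM in GFP cells, 80.8, 67.5 and 65.6 in FAT1 cells and 51.1, 85.1 and 61.3 in CDKN2A cells. Every knockout sample was above every GFP sample. Here and in the line comparisons below, the share of all genes whose samples separated in this way was not counted. ABCC1 was 1.90-fold higher in FAT1 cells (95% interval 1.5 to 2.41, limma-voom with Benjamini-Hochberg adjusted p = 6.51e-05) and 1.68-fold higher in CDKN2A cells (95% interval 1.32 to 2.16, adjusted p = 0.000566 by the same test). Over all treatments the mean was 75.8 CPM in FAT1 and 70.7 in CDKN2A cells, between the 39.9 of GFP and the 98.4 of HcRed cells. The 2 control lines were made with different plasmids and the knockout lines were not tested against HcRed.

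**Figure D4:**
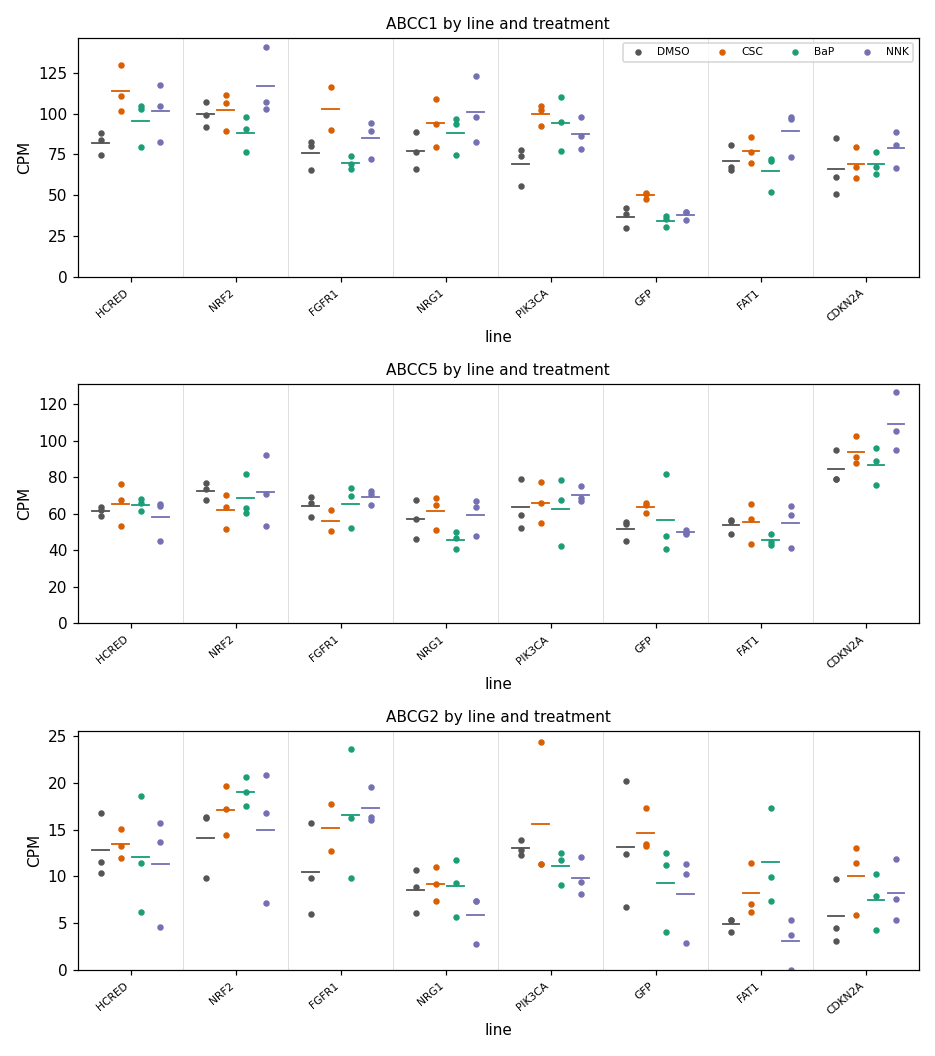
ABCC1, ABCC5 and ABCG2 in each sample, in CPM, by line and treatment, with 1 point per replicate and a bar at the mean of each combination. GFP cells have the lowest mean of ABCC1 in all 4 treatments, with samples at 30.0 to 51.2 CPM, and CDKN2A cells the highest mean of ABCC5, with samples at 76.0 to 127 CPM.

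In FAT1 cells 2 of 6 members passed with DMSO (26.3% of all genes) and 2 of 6 over the 4 treatments (48.9%). Besides ABCC1, at 1.85-fold over the 4 treatments (limma-voom with Benjamini-Hochberg adjusted p = 9.30e-13), the other was ABCG2. ABCG2 had 5.34, 5.33 and 4.10 CPM in FAT1 cells with DMSO and 6.77, 20.2 and 12.4 in GFP cells, without overlap. Its fold was 0.425 with DMSO (95% interval 0.234 to 0.771, limma-voom with Benjamini-Hochberg adjusted p = 0.0319) and 0.571 over the 4 treatments (adjusted p = 0.00546 by the same test). The DMSO call did not survive DESeq2 (adjusted p = 0.0990), GC correction (0.0567 by limma-voom) or the removal of any 1 sample but GFP replicate 1, with adjusted p up to 0.172 without GFP replicate 2. Without replicate 2 the call over the 4 treatments was lost as well (adjusted p = 0.0506 by limma-voom). In the same comparison 6 of 8 NRF2 targets fell and 0 rose, with NQO1 at 0.414.

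CDKN2A cells differed from GFP cells in the most pumps. With DMSO 4 of 6 members passed against 37.2% of all genes, and over the 4 treatments 6 of 6 against 57.6%. ABCC5 had 95.1, 78.9 and 79.4 CPM in CDKN2A cells with DMSO and 45.4, 54.7 and 55.8 in GFP cells, without overlap, and over the 4 treatments it was 1.65-fold higher (95% interval 1.47 to 1.86, limma-voom with Benjamini-Hochberg adjusted p = 6.69e-11). Over its 12 samples CDKN2A had a median ABCC5 level of 93.0 CPM (76.0 to 127). The next line, NRF2, had a median of 68.8 (51.8 to 92.2), and the 2 ranges overlapped. ABCC4 went the other way, with 36.1, 21.5 and 28.0 CPM in CDKN2A cells and 52.2, 36.5 and 58.9 in GFP cells with DMSO, where the groups just missed overlapping. Its level over the 4 treatments was 0.529 of that in GFP cells (95% interval 0.446 to 0.628, limma-voom with Benjamini-Hochberg adjusted p = 3.31e-09). These 2 genes and ABCC1 passed under each alternative run for them, in both comparisons.

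The other 3 calls in CDKN2A cells were weak. ABCG2 had 9.68, 3.08 and 4.51 CPM with DMSO, overlapping the GFP values, and its folds were 0.456 with DMSO (limma-voom with Benjamini-Hochberg adjusted p = 0.0359) and 0.683 over the 4 treatments (0.0385). It was not called by DESeq2 (adjusted p = 0.148 and 0.0537), nor with DMSO without GFP replicate 2 (0.188 by limma-voom), GFP replicate 3 (0.0603), CDKN2A replicate 2 (0.158) or CDKN2A replicate 3 (0.129). Over the 4 treatments its adjusted p by limma-voom was 0.373 without replicate 2, 0.0963 without replicate 3, 0.0696 with no filter and 0.0578 with the replicate number as a block. ABCC2 was 2.13-fold higher (limma-voom with Benjamini-Hochberg adjusted p = 0.0182) on a mean of 1.92 reads, and the call was lost without replicate 1 (0.0734) or replicate 3 (0.142) and in DESeq2 (0.0551). ABCC3 was 1.17-fold higher (adjusted p = 0.0393 by limma-voom with Benjamini-Hochberg), and the call was lost without replicate 1 (0.0852), 2 (0.0871) or 3 (0.140), with no filter (0.0597) and after GC correction (0.394).

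CDKN2A cells also had the highest summed level of the 16 markers of other cell types among the lines by median, 56.5 CPM (42.3 to 71.2) against 39.1 (19.3 to 67.1) in GFP cells, and the part of this in the ABC results was not tested. Of the 14 tested solute carriers, 6 rose and 4 fell in CDKN2A cells against GFP over the 4 treatments. Over all genes 29.4% rose and 28.3% fell. The counts were 5 and 5 after GC correction, which took the median log2 change of the list from 0.26 to 0.01, and 4 and 1 with DMSO alone. Over the 4 treatments those that rose were led by SLCO4C1 (an organic anion transporter) at 29.5-fold and SLC47A1 (a drug and proton antiporter) at 4.41-fold.

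**Figure D5:**
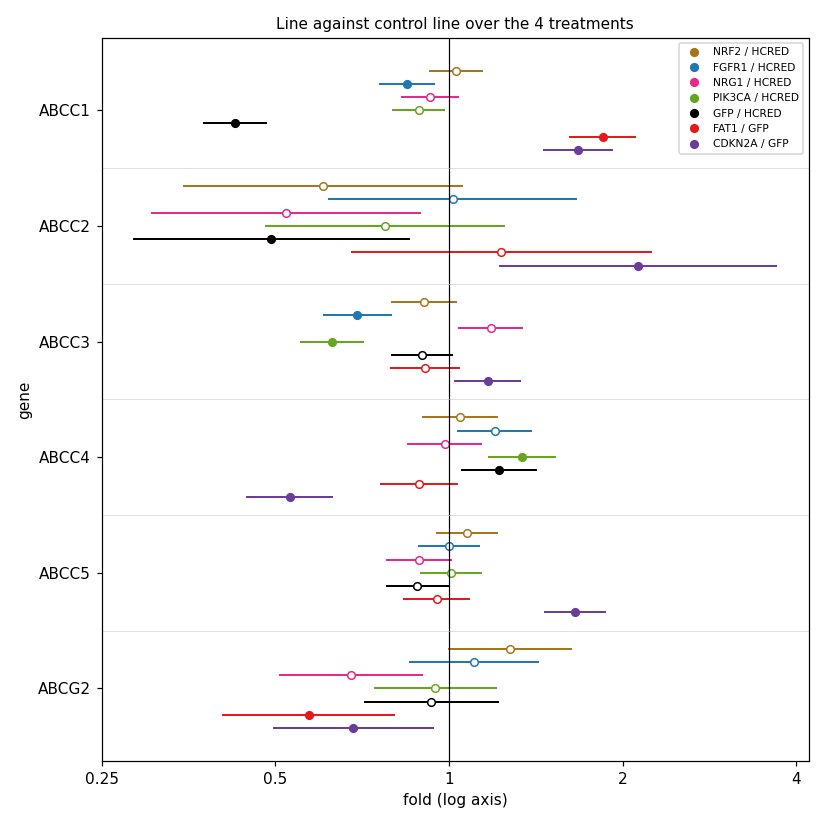
Fold change of each tested pump in each line against its control, and of GFP against HcRed, over the 4 treatments (log axis), with bars for 95% intervals from limma-voom, a line at 1 and filled points past the adjusted threshold of 0.05. ABCC1 is to the right of 1 in FAT1 and CDKN2A cells at 1.85 and 1.67 and to the left in GFP cells at 0.426, and ABCC4 is to the left in CDKN2A cells at 0.529.

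Among the overexpression lines, PIK3CA and FGFR1 cells had less ABCC3 than HcRed cells, and these comparisons share the HcRed samples. With DMSO, ABCC3 had 24.7, 27.0 and 21.7 CPM in PIK3CA cells and 27.7, 21.6 and 26.0 in FGFR1 cells. All were below the 3 HcRed values, and the share of all genes that separated in this way was not counted. Over the 4 treatments its level was 0.627 of that of HcRed cells in PIK3CA cells (95% interval 0.553 to 0.710, limma-voom with Benjamini-Hochberg adjusted p = 9.00e-09) and 0.694 in FGFR1 cells (0.606 to 0.793, adjusted p = 4.49e-05 by the same test). Both held under all 11 alternatives. PIK3CA cells were 1.34-fold higher in ABCC4 (95% interval 1.17 to 1.52, limma-voom with Benjamini-Hochberg adjusted p = 0.000397), with medians of 50.2 CPM over PIK3CA and 37.8 over HcRed samples, and this too held under all 11.

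In PIK3CA cells 2 of 6 members passed over the 4 treatments against 27.8% of all genes, and in FGFR1 cells 2 of 6 against 13.5%. The other FGFR1 call was ABCC1 at 0.846 (adjusted p = 0.0310 by limma-voom with Benjamini-Hochberg), and it was lost without replicate 1 (0.305) or replicate 3 (0.303), with no filter (0.0532) and in DESeq2 (0.0510). With DMSO alone none passed in either line, against 8.6% of all genes in PIK3CA and 1.86% in FGFR1 cells. ABCC3 was the 1 member with an unadjusted p under 0.05 in both. In PIK3CA cells its limma-voom adjusted p was 0.0524, edgeR called it and DESeq2 did not, and in FGFR1 cells neither tool called it.

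NRG1 cells had the highest median of ABCC3 among the lines, 72.8 CPM, and reached 136 with CSC. In the comparison with HcRed cells 0 of 6 members passed with DMSO (2.04% of all genes) and 0 of 6 over the 4 treatments (10.8%) in limma-voom. At an unadjusted p under 0.05 there was 1 member with DMSO, ABCC3, and there were 3 over the 4 treatments, ABCC2, ABCC3 and ABCG2. DESeq2 called none in either, and edgeR called 2 over the 4 treatments, ABCC3 (adjusted p = 0.0498) and ABCG2 (0.0456). ABCC3 had 55.5, 51.0 and 52.0 CPM with DMSO, all above the 3 HcRed values, and the share of genes separating so was not counted.

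With lines ordered by their medians in the same DMSO samples, neighbouring lines that did not overlap were few. How often neighbours separate so over all genes was not counted. For ABCC1 these neighbours were NRF2 above HcRed and CDKN2A above GFP, and for ABCC3 GFP above FAT1. For ABCC4 they were NRG1 above CDKN2A, for ABCC5 CDKN2A above NRF2 and for ABCG2 NRG1 above FAT1. Across the 32 combinations, the mean of ABCC3 ran from 103 CPM ± 28.8 (SD, n = 3) in NRG1 cells with CSC to 24.5 ± 2.66 (n = 3) in PIK3CA cells with DMSO. ABCC1 ran from 117 ± 20.9 (n = 3) in NRF2 cells with NNK to 34.4 ± 3.59 (n = 3) in GFP cells with BaP. The mean of ABCC5 was highest in CDKN2A cells with NNK, 109 ± 16.1 (n = 3), and lowest in FAT1 cells with BaP, 45.7 ± 3.18 (n = 3). Between 29 and 31 of the 31 neighbouring pairs in these orders overlapped, depending on the gene.

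The genes whose mean log2 CPM followed each pump most closely over the 32 combinations were ranked among 10061 genes by Pearson's r, as a description of points that share lines, treatments and libraries. For ABCC1 they were SRCAP (0.934), PLAGL2 (0.917) and RAB11FIP3 (0.908). For ABCC3 they were SLC2A1 (0.859), which encodes the glucose transporter GLUT1, OTUB1 (0.855) and C1orf116 (0.840). VPS13B (0.862), ERMP1 (0.848) and RHOA (0.844) came first for ABCC4, ADGRL2 (0.861), HSPA2 (0.860) and C3orf58 (0.840) for ABCC5, and CASP8 (0.765), HIST1H4C (0.736) and HIST1H3E (0.730) for ABCG2. Between members of the set r was lowest for ABCC3 with ABCC4 (-0.45) and ABCC4 with ABCC5 (-0.44), and highest for ABCC1 with ABCC3 (0.22).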

How the data were processed

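RNA of 95 AALE samples was profiled by SFL, pooled and sequenced as single 75-bp reads. The authors trimmed reads with cutadapt 1.12, checked them with FastQC 0.11.5, aligned them to hg19 with STAR 2.5.2b and counted them per gene with featureCounts of the Subread package. The deposited files hold these whole-number read counts per gene symbol, not normalized, 1 file per sample. Groups came from the labels.

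Counts were scaled to CPM by the trimmed mean of M-values (TMM) in edgeR 4.0.16 and tested with limma-voom (limma 3.58.1 in R 4.3.3, two-sided, empirical Bayes) on genes averaging more than 1 count over the samples fitted, with Benjamini-Hochberg adjustment over all genes tested and a threshold of 0.05. Line comparisons used DMSO samples alone or all treatments with treatment as a covariate. Treatment comparisons used all samples with line as a covariate. Log2 CPM values carry 0.5 added counts. Alternatives were the edgeR quasi-likelihood test, DESeq2 1.42.0, DESeq2 size factors, an average of 10 counts or more, no filter, the replicate number as a block, loess removal of GC and length trends (span 0.3, for the 24309 symbols, 86.9%, with a GENCODE model), all samples in 1 fit, the 10000 most variable genes, and leaving out replicates. Fits were tested on simulated data. The transporters and the gene lists were chosen with earlier results of these data known. In every comparison the 7 transporters and, from each list, at most 2 genes of largest change past the threshold that averaged 10 counts or more were eligible to be named. Pattern likeness used the 3 genes of highest Pearson correlation for each member with 10 counts or more on average. Promoters came from RefSeq, and lengths from MANE Select transcripts. Some genes of the lists are not reported here by name.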

Additional observations from a re-analysis of the deposited data

How the results depend on the processing

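The replicate numbers did not pair samples (mean correlation of their deviations -0.0112 to 0.0399 over the comparisons), and adding them as a replicate block moved the count of members past the threshold only in the CDKN2A comparison over the 4 treatments (6 to 5), in PIK3CA against HcRed with DMSO (0 to 1) and in CSC over all lines (2 to 3). In PIK3CA against HcRed with DMSO the count also went from 0 to 1 with edgeR, DESeq2 size factors, an average of 10 counts or more and GC correction, and was 0 to 1 when 1 sample was left out. In FAT1 against GFP with DMSO it went from 2 to 1 with DESeq2 and GC correction, and was 1 to 2 with 1 sample left out. Over the 4 treatments, FGFR1 against HcRed went from 2 to 1 with DESeq2 and no filter (1 to 2 with 1 replicate number left out), NRG1 against HcRed from 0 to 2 with edgeR and GC correction and to 1 with an average of 10 counts or more, and FAT1 against GFP from 2 to 1 with that filter, under which ABCG2 is not tested (2 to 3 with 1 replicate number left out). With 1 replicate number left out, CDKN2A against GFP gave 3 to 4 (4 with DESeq2, no filter or an average of 10 counts or more, 5 with GC correction), GFP against HcRed 1 to 2, and PIK3CA against HcRed, CSC and NNK over all lines 2 to 3 each, on fewer samples by construction. CDKN2A against GFP with DMSO gave 3 to 4 with 1 sample left out. NNK over all lines went from 3 to 1 with GC correction, and CSC in HcRed cells from 2 to 1 with DESeq2 and GC correction (1 to 2 with 1 sample left out). Apart from the trend removal itself and the smaller fits, the cause of these shifts was not tested.

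Of 1088 values of single members under other settings, 1053 kept their side of the threshold, 20 lost the call and 15 gained it, and of 594 with samples left out 561, 28 and 5 did. No called value changed sign, and sign changes of uncalled values were not counted. With no filter, ABCB1 passed with NNK (log2 0.55, limma-voom with Benjamini-Hochberg adjusted p = 0.0104). Of its 12 reads, 4 were in the 24 NNK and 3 in the 24 DMSO samples, of which 20 and 21 were at 0. Median totals were 753702.5 counts with NNK and 1051107.5 with DMSO. With 0.5 counts added, a sample without reads gets a higher log2 CPM where its total is smaller. The part of this in the call was not tested. Counts over all genes depended on the setting more. GC correction took CSC over all lines from 7922 to 4492 (7616 for the same genes uncorrected), BaP from 7337 to 3348, NNK from 7455 to 2355, CSC in HcRed cells from 3426 to 908, CSC in NRF2 cells from 1269 to 657 and CSC by NRF2 from 34 to 10. With DMSO, DESeq2 took NRF2 from 1005 to 307, FGFR1 from 265 to 83, NRG1 from 287 to 72, PIK3CA from 1228 to 460, FAT1 from 3752 to 1983 and CDKN2A from 5408 to 3402. It took CSC in HcRed cells from 3426 to 1528, CSC in NRF2 cells from 1269 to 376, CSC by line from 112 to 41 and CSC by NRF2 from 34 to 7. With no filter BaP gave 12546, NNK 12582 and CSC by NRF2 19. In that setting genes at or near 0 reads are tested as well, and the part of library totals in these counts was not tested. The replicate block gave 64 for CSC by NRF2, edgeR 25 rather than 10 for NNK by line, and 1 fit of all samples 175 for NRG1 with DMSO. Leaving out samples moved the counts by over 1.5 times in NRF2, FGFR1 and NRG1 with DMSO and over the 4 treatments, in CSC in HcRed and NRF2 cells, in CSC by NRF2 and in the tests by line. Depth limits ABCC2 and ABCB1, whose levels lay below 3 reads in most samples.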
